A study of Mus musculus with 12 samples.

Results

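Dendritic cells take up antigen and present it to T cells, and their subsets are told apart by a small number of transcripts. This account covers 10 genes used as identity markers of those subsets, given by symbol and found by Ensembl identifier among the 43432 genes of the count table. All 10 were present and all 10 had enough counts to be tested. The study's 12 samples are tumours formed by CR705, a line of mouse pancreatic cancer cells, with Krt8 and Krt18 among the abundant epithelial transcripts in both groups. The cells that formed 6 of the tumours carry the genotype label WT (wild type). For the other 6 the label is AHRKO, a knockout of Ahr, the gene of the aryl hydrocarbon receptor, which is a ligand-activated transcription factor. RNA came from about 100 mg of tumour per the labels, although their culture and treatment texts concern cells in plates given test compounds. No sample label names a compound, and all 12 samples were taken as untreated tumours. The sources used here do not give the method of the knockout, whether either line is a single clone, or the strain, sex and age of the hosts. The receptor status of the host's own cells, which include its dendritic cells, is not stated either. Nothing in the labels says that replicates came from separate animals, so p-values measure only the spread between these samples.

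Conventional dendritic cells depend on the growth factor receptor FLT3. The cross-presenting subset, cDC1, needs the transcription factor BATF3 and carries the chemokine receptor XCR1, while cDC2 cells and monocyte-derived cells present antigen mainly to helper T cells. Plasmacytoid dendritic cells, pDC, secrete type I interferon and carry the lectin Siglec-H in mice. On maturation, dendritic cells bundle actin with fascin and secrete CCL17 and CCL22, which bind the receptor CCR4 on T cells. In a tumour, cDC1 cells are known for carrying tumour antigen to CD8 T cells.

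Of the 10 genes, 8 rose in AHRKO tumours, 0 fell and 2 did not pass the test (edgeR's quasi-likelihood test, adjusted p under 0.05). Over all 15449 genes tested, 29.5% passed, with 15.9% higher and 13.6% lower. At an unadjusted p under 0.05, 9 of the 10 were higher and 0 lower by edgeR, and the share of all genes at that threshold is not given here. DESeq2 and limma-voom also called 8 of the 10 higher and 0 lower. Of all 15449 genes, DESeq2 called 3005 higher and 2505 lower, and limma-voom 3080 and 2948. The 10 genes were picked with earlier results of these data known, so their count is a description. The median log2 fold change (AHRKO over WT) of the 10 genes was 1.69, against 0.023 over all genes tested. Xcr1, Batf3, Fscn1 and Ccl22 were higher in every AHRKO library than in any WT library, a separation that 6.03% of all tested genes showed in that direction and 7.35% in the other. Levels below are in CPM, counts scaled to the size and composition of each library. In bulk tumour RNA, more cells of a type and more RNA per cell cannot be told apart.

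AHRKO replicate 1 stood apart before any comparison. It had the highest AHRKO level of 8 of the 10 genes, and AHRKO replicate 4 had the highest level of Cd209a and Ccl17. Over 14 pan-leukocyte markers, led by Laptm5 and Itgb2, the mean log2 CPM was 7.50 in AHRKO replicate 1, from 4.90 to 5.96 in the other AHRKO libraries and from 3.995 to 4.91 in WT. The same library had the lowest summed level of 10 pancreatic epithelial markers, led by Krt8 and Krt18, at 702 CPM against 3519 to 4993 in WT. Its 10 endothelial markers summed to 2081 CPM, against 377 to 828 in WT. Each member is given with and without that library where it moved the value. Library totals ran from 14772343 to 35881469 counts. The Ahr transcript was at 101 to 126 CPM in WT and at 62.5 to 143 in AHRKO, with a log2 fold change of -0.13 ± 0.17 (SE, adjusted p = 0.606, edgeR). It therefore did not check the labels, and where the gene was altered is not stated.

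Because the comparison concerns a receptor that binds DNA, the promoter windows of the members were read for its core letters. The windows run from 250 bases before to 50 bases after the RefSeq start on GRCm38.p6, the assembly also called mm10. All 10 genes matched, Cacnb3 with 2 windows. The letters searched were GCGTG on both strands, the core of the xenobiotic response element that the receptor binds. Of all 32851 windows of this length, 32.4% hold them, and 5 of the 10 members do: Xcr1, Fscn1, Ccl17, Ccl22 and Cacnb3. The windows of the 4 that also rose are shown, each 5′ to 3′ on the gene's strand, with GCGTG or its reverse complement in capitals. In the Ccl22 window, capitals also mark the one match to a short form of the NF-kB site, GGGA and CC with any 4 bases between them, searched on both strands.
Xcr1, chr9:123861980-123862279, minus strand: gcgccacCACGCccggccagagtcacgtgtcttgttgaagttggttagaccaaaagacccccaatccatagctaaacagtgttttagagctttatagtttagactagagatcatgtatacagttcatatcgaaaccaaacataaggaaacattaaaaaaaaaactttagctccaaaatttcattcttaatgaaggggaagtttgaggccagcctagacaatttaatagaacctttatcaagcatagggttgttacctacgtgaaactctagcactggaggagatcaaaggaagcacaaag
Fscn1, chr5:142960105-142960404, plus strand: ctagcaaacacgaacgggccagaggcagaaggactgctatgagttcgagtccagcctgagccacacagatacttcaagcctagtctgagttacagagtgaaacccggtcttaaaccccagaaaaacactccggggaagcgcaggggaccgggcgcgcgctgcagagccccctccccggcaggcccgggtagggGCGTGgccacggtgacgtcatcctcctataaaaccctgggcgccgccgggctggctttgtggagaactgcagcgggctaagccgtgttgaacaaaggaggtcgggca
Ccl17, chr8:94810203-94810502, plus strand: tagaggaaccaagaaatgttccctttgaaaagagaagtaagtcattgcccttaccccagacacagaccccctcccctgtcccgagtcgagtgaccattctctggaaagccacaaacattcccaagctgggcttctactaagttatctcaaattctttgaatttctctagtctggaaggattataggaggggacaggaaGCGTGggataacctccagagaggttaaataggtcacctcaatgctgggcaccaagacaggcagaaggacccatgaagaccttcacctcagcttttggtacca
Ccl22, chr8:94745434-94745733, plus strand: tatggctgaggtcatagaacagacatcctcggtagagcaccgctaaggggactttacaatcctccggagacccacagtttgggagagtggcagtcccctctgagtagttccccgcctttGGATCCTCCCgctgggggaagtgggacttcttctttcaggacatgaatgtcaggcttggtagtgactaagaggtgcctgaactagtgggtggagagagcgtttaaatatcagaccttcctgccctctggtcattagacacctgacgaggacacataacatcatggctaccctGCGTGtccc

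Counted from the start site, the match began at base -243 in Xcr1, -57 in Fscn1, -52 in Ccl17 and 42 in Ccl22, the last of these downstream of the start. Xcr1 carries it on the minus strand of the window and the other 3 on the plus strand. Other short motifs were scarcer among the members. The NF-kB form was found in Ccl22 and Cacnb3, against 20.7% of all windows. The AP-1 letters TGANTCA were found in Zbtb46 (7.81% of all windows), the PU.1 letters GAGGAAG in Batf3 (13.6%), and the ETS-IRF composite, GGAA and GAAA with any 2 bases between them, in Cd209a (2.72%). The interferon-stimulated response element, GAAA and GAAA with any 2 bases between, was found in 0 of the 10 genes and in 3.44% of all windows. The windows of Flt3 and Siglech held none of these 6 motifs. A match describes letters in a window and is not a binding site. The windows of Batf3, Zbtb46 (chr2:181424339-181424638, minus strand) and Cacnb3 lie wholly inside the annotated gene. The annotated start further upstream in these genes was not searched.

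Among the transcription factors, Batf3 rose and Zbtb46 did not pass the test. Batf3 (ENSMUSG00000026630, mm10 chr1:191097847-191108945, plus strand) encodes the AP-1 family factor that cDC1 cells require, and activated T cells also express it. Its level in WT was 0.672 at the lowest, 1.19 at the median and 1.77 CPM at the highest, and in AHRKO 2.51, 4.14 and 17.7. The groups did not overlap, and the lowest AHRKO library, replicate 5, lay above the highest WT library, replicate 3. This was a log2 fold change of 2.55 ± 0.49 (SE), a 5.85-fold rise with an adjusted p of 0.0032 by edgeR's quasi-likelihood test. Without AHRKO replicate 1 it was 1.97 (adjusted p = 0.0014, edgeR).

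Zbtb46 (ENSMUSG00000027583, chr2:181387762-181459426, minus strand) encodes a zinc-finger factor of conventional dendritic cells that endothelial cells also express. WT libraries had 11.5, 12.7 and 15.1 CPM (lowest, median, highest), and AHRKO libraries 13.4, 16.0 and 34.1. AHRKO replicate 1 was far above the rest, whose highest was 16.3 CPM. Its log2 fold change was 0.48 ± 0.22 (adjusted p = 0.114, edgeR) and fell to 0.21 ± 0.11 without that library (adjusted p = 0.154, edgeR). Of the 10 endothelial markers, led by Cdh5 and Pecam1, 0 passed the test in either direction (edgeR, 0 at an unadjusted p under 0.05, and 0 by DESeq2 and by limma-voom), with a median log2 fold change of 0.65, and their sum was highest in AHRKO replicate 1 too. The part of endothelial RNA in the Zbtb46 level was not tested.

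Among the surface receptors, Xcr1 had the smallest p. Xcr1 (ENSMUSG00000060509, chr9:123852315-123862029, minus strand) encodes the receptor by which cDC1 cells respond to the chemokine XCL1. It was read 18 times in the 6 WT libraries together, which by counting error alone allows 10.7 to 28.4 reads (exact Poisson 95% interval), and 136 times in AHRKO (114 to 161). No WT library had more than 6 reads and no AHRKO library fewer than 9. The levels in WT were 0.042, 0.076 and 0.307 CPM (lowest, median, highest), and in AHRKO 0.618, 1.12 and 2.79. Xcr1 thus had a log2 fold change of 3.24 ± 0.53 (SE), a 9.47-fold rise (adjusted p = 0.00136, edgeR), and 2.90 without AHRKO replicate 1 (adjusted p = 0.000818). The WT reads are few enough that the size of the fold is loosely fixed, and it ran from 2.90 to 3.61 on the log2 scale when single libraries were left out.

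Siglech (ENSMUSG00000051504, chr7:55768178-55778925, plus strand) encodes a sialic acid-binding lectin of pDC. It had the largest fold change of the 10, and most of its reads came from 1 library. WT levels were 0 in replicate 6, 0.277 CPM at the median and 0.559 at the highest, and AHRKO levels were 0.515, 1.86 and 17.9. AHRKO replicate 1 gave 301 of the 441 AHRKO reads. AHRKO replicate 5 lay just below the highest WT library, so the groups overlapped. Over all 12 libraries the log2 fold change was 3.99 ± 0.94 (adjusted p = 0.0084, edgeR), or 15.9-fold, and 2.59 ± 0.60, or 6.01-fold, without AHRKO replicate 1 (adjusted p = 0.00619, edgeR).

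Flt3 (ENSMUSG00000042817, chr5:147330741-147400489, minus strand) encodes the receptor tyrosine kinase that dendritic cell precursors need. An antisense gene overlaps it, and whether counting used the strand is not stated, so their reads may not be separable. WT levels were 1.39, 1.97 and 3.32 CPM (lowest, median, highest), and AHRKO levels 2.27, 4.56 and 24.3. In AHRKO replicates 2 and 5 Flt3 lay within the WT range. The log2 fold change was 1.79 ± 0.56 (adjusted p = 0.0302, edgeR), a 3.46-fold rise, and 0.87, a 1.83-fold rise, without AHRKO replicate 1 (adjusted p = 0.0378). Leaving out WT replicate 1, 2, 4 or 6 ended the call (adjusted p up to 0.0639, edgeR).

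Cd209a (ENSMUSG00000031494, chr8:3743397-3748984, minus strand) encodes a mouse relative of DC-SIGN, a lectin of monocyte-derived cells and cDC2 cells. It belongs to a cluster of similar genes, so its reads may be shared with them. WT levels were 0.546, 1.33 and 4.14 CPM, with replicates 2 and 3 at 4.14 and 3.54 and the others at 1.44 or less. AHRKO levels were 2.12, 4.62 and 10.54, and 3 of 6 libraries lay above all WT. At 1.53 ± 0.54, its log2 fold change passed narrowly (adjusted p = 0.0485, edgeR). Leaving out 1 library ended the call in 8 of 12 cases: WT replicates 1, 4, 5 and 6, and AHRKO replicates 1, 3, 4 and 6, with adjusted p of at most 0.113. Without AHRKO replicate 1 the log2 fold change was 1.30.

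**Figure D1:**
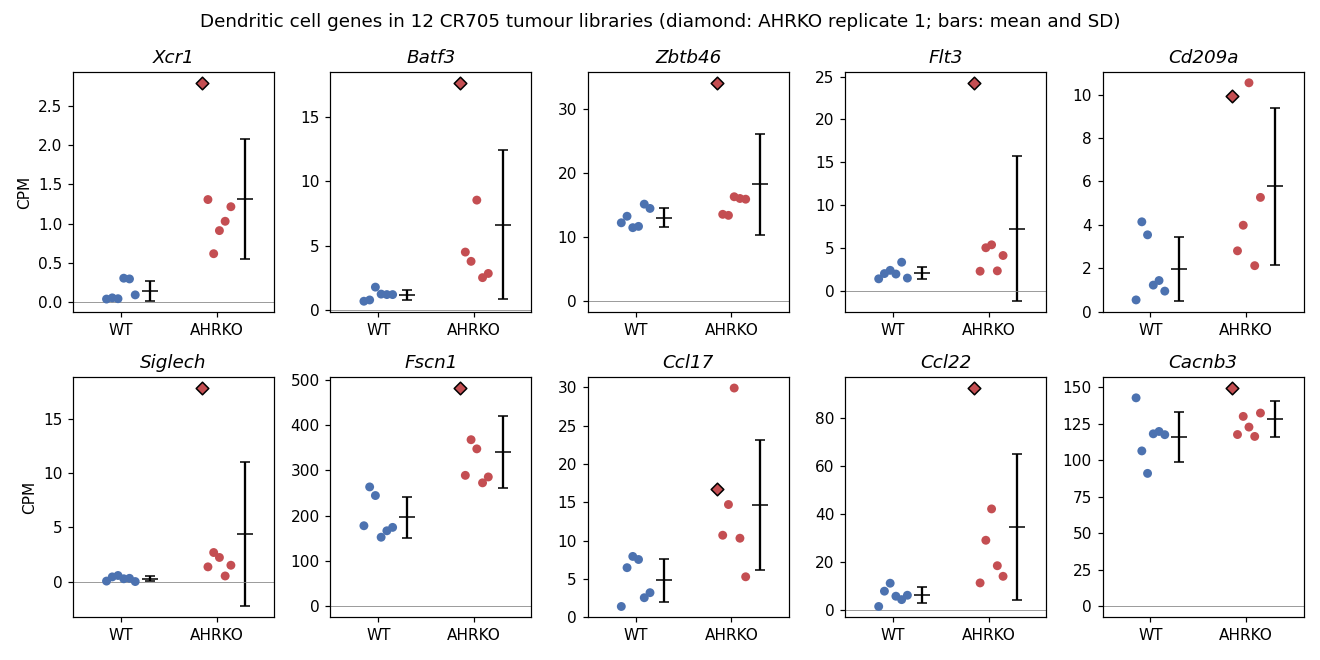
Level of each of the 10 dendritic cell genes in CPM (vertical axis, a separate linear scale per gene) in the 6 WT and 6 AHRKO libraries, with the mean and SD beside the points and AHRKO replicate 1 as a diamond. Xcr1, Batf3, Fscn1 and Ccl22 did not overlap between the groups, and AHRKO replicate 1 was the highest AHRKO library in 8 of 10 panels.

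Of the 4 members that mark mature dendritic cells, Ccl22, Ccl17 and Fscn1 rose and Cacnb3 did not pass. Ccl22 (ENSMUSG00000031779, chr8:94745590-94751699, plus strand) encodes a ligand of CCR4 that draws regulatory and helper T cells, and macrophages can make it too. WT levels were 1.51, 5.98 and 11.2 CPM (lowest, median, highest), and AHRKO levels 11.3, 23.8 and 92.4. The groups did not overlap, but only just: WT replicate 3 had 11.2 CPM and AHRKO replicate 2 had 11.3. The log2 fold change was 2.49 ± 0.56 (adjusted p = 0.00679, edgeR), a 5.61-fold rise, and 1.89, a 3.72-fold rise, without AHRKO replicate 1 (adjusted p = 0.00639).

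Ccl17 (ENSMUSG00000031780, chr8:94810453-94812036, plus strand) encodes the other ligand of CCR4. WT levels were 1.39, 4.82 and 7.92 CPM, and AHRKO levels 5.26, 12.7 and 29.9. AHRKO replicate 4 was highest and AHRKO replicate 6 fell inside the WT range. The log2 fold change was 1.59 ± 0.47 (adjusted p = 0.0238, edgeR) and was nearly the same, 1.55, without AHRKO replicate 1 (adjusted p = 0.0275). Leaving out WT replicate 5, WT replicate 6 or AHRKO replicate 4 ended the call (adjusted p up to 0.0597, edgeR). WT replicate 1 was the lowest WT library for both chemokines and for 6 of the 10 genes, and it also had the lowest pan-leukocyte level.

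Ccl22 and Ccl17 lie 58753 bases apart on chromosome 8, with Cx3cl1, which encodes the chemokine fractalkine, between them. Cx3cl1 did not pass the test, with 87.7 ± 22.6 CPM in WT and 78.1 ± 27.6 in AHRKO (mean ± SD over 6 libraries) and a log2 fold change of -0.17 ± 0.24 (adjusted p = 0.632, edgeR). The median log2 fold change over the 826 tested genes of chromosome 8 was -0.31. The ratio of Ccl22 to Ccl17 reads was between 0.769 and 1.94 in WT, between 1.06 and 2.67 in AHRKO replicates 2 to 6, and 5.54 in AHRKO replicate 1.

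Fscn1 (ENSMUSG00000029581, chr5:142960343-142973185, plus strand) encodes fascin, the actin-bundling protein of mature dendritic cells, which carcinoma cells and other cells also make. WT libraries had 153, 176 and 264 CPM (lowest, median, highest), and AHRKO libraries 273, 318 and 482. The groups did not overlap. The rise was small in fold, at a log2 fold change of 0.79 ± 0.17 (1.73-fold, adjusted p = 0.00603, edgeR), and was 0.66 without AHRKO replicate 1 (adjusted p = 0.00654). Its SE was the smallest among the 8 genes that rose.

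Cacnb3 (ENSMUSG00000003352, chr15:98630840-98644529, plus strand) encodes an auxiliary subunit of voltage-gated calcium channels that is part of the mature dendritic cell signature and is also made by neurons. WT libraries had 91.0, 118 and 143 CPM, and AHRKO libraries 116, 126 and 149. The groups overlapped almost wholly, and the log2 fold change of 0.14 ± 0.10 did not pass (adjusted p = 0.317, edgeR). Among 8 neuronal markers, led by Tubb3 and Snap25, 5 were tested, 2 fell and 3 did not pass by edgeR, with 1 of these 3 (Stmn2, named after its value was seen) higher at an unadjusted p under 0.05. DESeq2 called 1 marker higher and 2 lower. The summed level of the list was 60.5 to 167 CPM in WT and 83.7 to 161 in AHRKO.

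Divided by annotated exon length, the levels of the 10 genes spanned a wide range within WT tumours, on the scale of CPM per kilobase. Fscn1 was highest at 65.3, followed by Cacnb3 at 28.9, Ccl17 at 9.40, Ccl22 at 2.65, Zbtb46 at 1.53, Cd209a at 1.25, Batf3 at 0.712, Flt3 at 0.338, Siglech at 0.078 and Xcr1 at 0.032. Between neighbours in that order, the ranges over libraries were separate only for Fscn1 and Cacnb3, Cacnb3 and Ccl17, and Flt3 and Siglech. In AHRKO the order was Fscn1 at 113, Cacnb3 at 31.9, Ccl17 at 28.4, Ccl22 at 14.9, Batf3 at 4.16, Cd209a at 3.65, Zbtb46 at 2.14, Siglech at 1.29, Flt3 at 1.17 and Xcr1 at 0.295. There the ranges of Fscn1 and Cacnb3 were separate, and those of all other neighbours overlapped. Fscn1 and Cacnb3 were thus abundant in WT tumours where Xcr1 and Siglech were close to 0, so the 10 genes did not share a level, and which cells of the tumour held the Fscn1 and Cacnb3 transcripts was not tested.

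Markers of leukocytes as a whole also moved with genotype. All 14 pan-leukocyte markers rose (edgeR), with a median log2 fold change of 1.63, close to the 1.69 of the 10 dendritic cell genes. Their summed level was 307 to 545 CPM in WT and 513 to 3144 in AHRKO. Of 13 macrophage and monocyte markers, led by Lyz2 and C1qa, 10 rose and 3 did not pass (967 to 1884 CPM summed in WT, 1258 to 7599 in AHRKO). Of 9 T cell markers 8 rose by edgeR, and Thy1, the most abundant, did not pass. By limma-voom 8 were higher and 1 lower. Lck followed Thy1 in level, and the sum was 149 to 327 CPM in WT and 128 to 599 in AHRKO. Most of that sum was Thy1 itself, at 144.5 to 313.2 CPM in WT and 114.6 to 414.7 in AHRKO. Thy1 is also on the fibroblast list, so the sum says little about the T cell genes that rose. All 3 tested B cell markers of 7 rose, Cd22 being the most abundant and Cd79b next, from 2.14 to 4.57 CPM summed in WT to 4.44 to 47.0 in AHRKO. Langerhans cells, another source of CCL17 and CCL22, were represented by Cd207 at 0.052 CPM in WT and 0.031 in AHRKO, below the level for testing. Epcam, the most abundant of that list of 4, did not pass the test, and the sum was 11.4 to 132 CPM in WT and 5.16 to 39.8 in AHRKO. Of 9 fibroblast markers, led by Col1a1 and Col3a1, and of 10 pancreatic epithelial markers, 0 passed the test (edgeR, with 0 and 2 of them at an unadjusted p under 0.05). DESeq2 called 0 and 2 of them lower, and limma-voom 3 and 2. Fibroblast markers summed to 15680 to 39260 CPM in WT and 9042 to 57280 in AHRKO, and epithelial markers reached 4805 in AHRKO. AHRKO replicate 1 gave the top of the AHRKO range for the pan-leukocyte, macrophage, T cell, B cell and fibroblast lists. In AHRKO replicates 2 to 6 the highest sums of these lists were 1119, 3588, 235, 24.3 and 21130 CPM, in that order. No marker in these lists had 0 counts in all libraries.

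**Figure D2:**
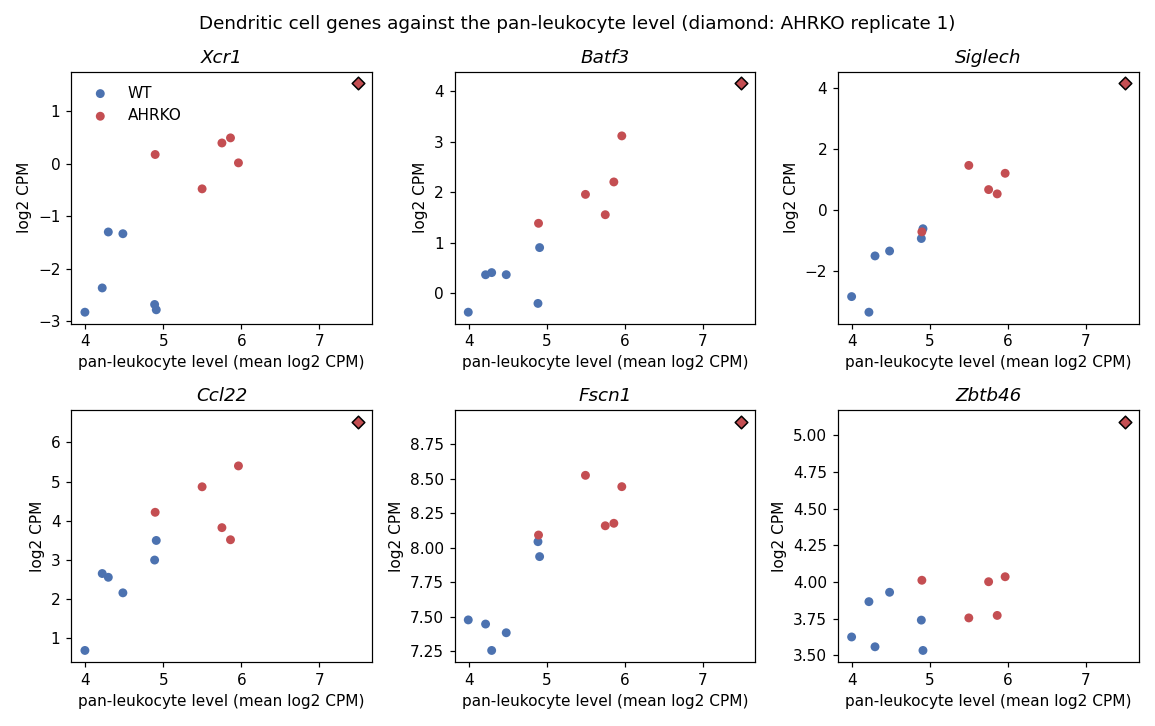
Level of 6 dendritic cell genes (vertical axis, log2 CPM) against the mean log2 CPM of 14 pan-leukocyte markers (horizontal axis) in each of 12 libraries, coloured by genotype, with AHRKO replicate 1 as a diamond. AHRKO replicate 5, at 4.90 on the horizontal axis, sits beside WT replicates 2 and 3 for Siglech and Fscn1 and above them for Xcr1.

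When the pan-leukocyte level was added to the fit as a covariate, 1 of the 10 genes, Xcr1, still rose, and 0 fell. In that fit 12.7% of all tested genes rose. Xcr1 had a log2 fold change of 2.31 ± 0.66, or 4.95-fold against 9.47-fold without the covariate (adjusted p = 0.022, edgeR). Batf3 was at 0.72 ± 0.41 (adjusted p = 0.208), Ccl17 at 0.89 ± 0.66 (adjusted p = 0.337), Ccl22 at 0.82 ± 0.51 (adjusted p = 0.249) and Siglech at 0.59 ± 0.60 (adjusted p = 0.498), all by edgeR. These 4 genes kept their sign and missed the threshold. Fscn1 was at 0.26 ± 0.18 (adjusted p = 0.285) and Cacnb3 at 0.095 ± 0.16 (adjusted p = 0.699). Zbtb46, Flt3 and Cd209a turned to -0.19, -0.44 and -0.11, with adjusted p of 0.559, 0.463 and 0.903. The leukocyte level separates 5 of the 6 AHRKO libraries from WT, so genotype and leukocyte level cannot be told apart for most libraries, and a p that misses the threshold does not show that a gene only followed the leukocytes. With AHRKO replicate 1 also left out, a setting chosen after the data were seen, Xcr1 was at 2.97 ± 0.87 and missed the threshold (adjusted p = 0.055, edgeR). In that fit 0 of the 10 genes passed, with 1 higher and 1 lower at an unadjusted p under 0.05, and 3.33% of all tested genes rose.

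**Figure D3:**
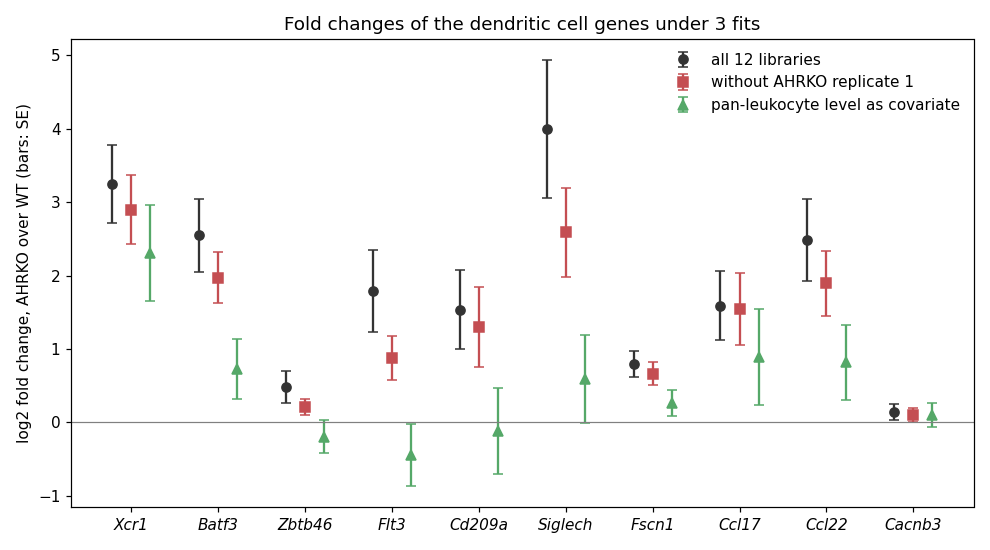
Log2 fold change of each dendritic cell gene (AHRKO over WT, vertical axis, bars are SE) in the fit of all 12 libraries, without AHRKO replicate 1, and with the pan-leukocyte level as a covariate. With the covariate Xcr1 went from 3.24 to 2.31 and Flt3 from 1.79 to -0.44.

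A pair of WT libraries and 1 AHRKO library happened to have like leukocyte levels, which allows a direct reading without a model, chosen after the values were seen and without a test. The pan-leukocyte mean was 4.89 and 4.91 in WT replicates 2 and 3 and 4.90 in AHRKO replicate 5. Xcr1 was at 0.057 and 0.047 CPM in the WT pair and at 1.03 in AHRKO replicate 5. This is 18.0 times the higher value of that WT pair, on 2, 1 and 16 reads. The factor depends on the pair chosen. WT replicates 4 and 5, with lower pan-leukocyte means of 4.295 and 4.482, had more Xcr1, at 0.307 and 0.298 CPM. Ccl22 was at 7.88 and 11.2 against 18.5 CPM, and Batf3 at 0.771 and 1.77 against 2.51. In AHRKO replicate 5 Siglech and Flt3 lay between the WT pair, with Siglech at 0.428 and 0.559 against 0.515 CPM and Flt3 at 2.00 and 2.38 against 2.32. Cd209a was below both, at 4.14 and 3.54 against 2.12 CPM. In all, 7 of the 10 genes were higher in AHRKO replicate 5 than in both WT libraries. Besides Xcr1, the factors over the higher WT value were 1.03 (Fscn1), 1.09 (Cacnb3), 1.21 (Zbtb46), 1.30 (Ccl17), 1.42 (Batf3) and 1.65 (Ccl22). How many of all tested genes were higher in this way was not counted, so the 7 are only a description.

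Expressed as a share of the geometric mean CPM of the pan-leukocyte markers, Xcr1 was 0.155% to 1.56% in WT and 1.37% to 3.46% in AHRKO. AHRKO replicate 1, the library with the most leukocyte transcripts, was at 1.54% and no longer stood out. Batf3 was at 2.60% to 6.40% in WT and 5.26% to 13.7% in AHRKO. Siglech remained highest in AHRKO replicate 1, at 9.87%, against a WT range of 0% to 1.86% and a median of 3.18% in AHRKO. Flt3 had like medians on this scale, 8.31% in WT and 8.18% in AHRKO. Medians of Ccl22 (28.0% in WT, 56.55% in AHRKO), Ccl17 (19.5% and 25.5%) and Cd209a (6.35% and 7.97%) were higher in AHRKO, with overlapping ranges. Fscn1, Zbtb46 and Cacnb3 had lower medians in AHRKO on this scale. A share falls wherever the leukocyte markers rise more than the gene does. The median of Fscn1, which rose in CPM, was 852% in WT and 543% in AHRKO. That of Zbtb46 was 63.6% in WT and 27.8% in AHRKO, and that of Cacnb3 was 569% and 224%.

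Other genes of dendritic cells were read from lists with the 10 members left out. Of 58 such genes present, 51 were tested, of which 31 rose, 2 fell and 18 did not pass, and their median log2 fold change was 1.33. Over all genes tested, 15.9% rose and 13.6% fell. Without AHRKO replicate 1, 30 rose and 3 fell, where 19.1% and 17.8% of all genes did, and 7 of the 10 identity genes rose. With the pan-leukocyte covariate 8 rose (Irf8, Naaa, Cd24a, Klf4, Relb, Nfkb2, Itgax and Ciita) and 6 fell (Ifi205, Sirpa, Tcf4, Socs2, Il15ra and Tmem123), against 12.7% and 14.0% of all genes tested. With AHRKO replicate 1 left out as well, 3 rose (Naaa, Klf4 and Itgax), and 2 fell (Ifi205 and Il15ra), where 3.33% and 6.00% of all genes did.

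Of 10 cDC1 genes 6 rose, 1 fell and 3 did not pass. Irf8, the factor that specifies cDC1 cells and pDC, had 26.01 ± 5.77 CPM in WT and 111 ± 62.9 in AHRKO (mean ± SD over 6 libraries), with a log2 fold change of 2.10 (adjusted p = 0.000846, edgeR). Naaa, a lysosomal amidase, rose by 1.68 (adjusted p = 0.000397) and Wdfy4, needed for cross-presentation, by 1.61 (adjusted p = 0.00464). The one that fell, named after its value was seen, was Cadm1, an adhesion molecule that epithelial cells also carry, at -1.04 (adjusted p = 0.0278). Of 7 tested cDC2 genes 6 rose, among them Mgl2, a galactose-type lectin, from 10.9 ± 4.91 to 70.1 ± 54.1 CPM (log2 fold change 2.68, adjusted p = 0.00212). Irf4, a factor that cDC2 cells share with lymphocytes, rose by 2.87 and Klf4 by 0.92, with adjusted p of 0.00233 and 0.0047 (edgeR).

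Of 8 tested pDC genes 4 rose, and Tcf4, the factor that specifies pDC and that many other cells express, did not pass, at 126 ± 13.4 and 116 ± 23.7 CPM (named after its value was seen, adjusted p = 0.547, edgeR). Bst2 and Irf7, both also induced by interferon in other cells, rose by 2.08 and 2.20 on the log2 scale, and Spib, shared with B cells, by 2.72. Without AHRKO replicate 1, where Spib was 5.75 times the mean of the other AHRKO libraries, its log2 fold change was 1.88 (adjusted p = 0.00138, edgeR). Of 15 tested genes of mature dendritic cells 9 rose, 1 fell and 5 did not pass. Nfkb2 and Relb, subunits of the non-canonical NF-kB pathway, had the smallest p, with log2 fold changes of 0.60 and 0.85. Their groups did not overlap, which also held for other genes of this list and for 6.03% of all tested genes in that direction. Il4i1, an amino acid oxidase, rose by 1.51. The one that fell, named after its value was seen, was Nudt17 at -0.92 (adjusted p = 0.0263, edgeR).

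Of 5 genes shared by conventional dendritic cells 3 rose. Itgax, which encodes CD11c, went from 19.4 ± 3.81 to 66.3 ± 23.5 CPM (log2 fold change 1.78, adjusted p = 0.000399, edgeR), Ciita, the master regulator of MHC class II, rose by 3.59 and Kmo, a kynurenine hydroxylase, by 2.29. Of 6 tested ligands and receptors 3 rose: Csf2ra by 1.48, Csf2rb by 1.36 and Csf2, which encodes the growth factor GM-CSF, by 1.94. The partners of the members were scarce and are named after their values were seen. Ccr4, the receptor of CCL17 and CCL22, was at 0.35 ± 0.18 CPM in WT and 0.834 ± 0.612 in AHRKO and did not pass (adjusted p = 0.0548, edgeR). Xcl1, the ligand of XCR1, was at 0.043 ± 0.060 and 0.704 ± 0.703 CPM, below the level for testing. Flt3l, the ligand of FLT3, was not analysed here.

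**Figure D4:**
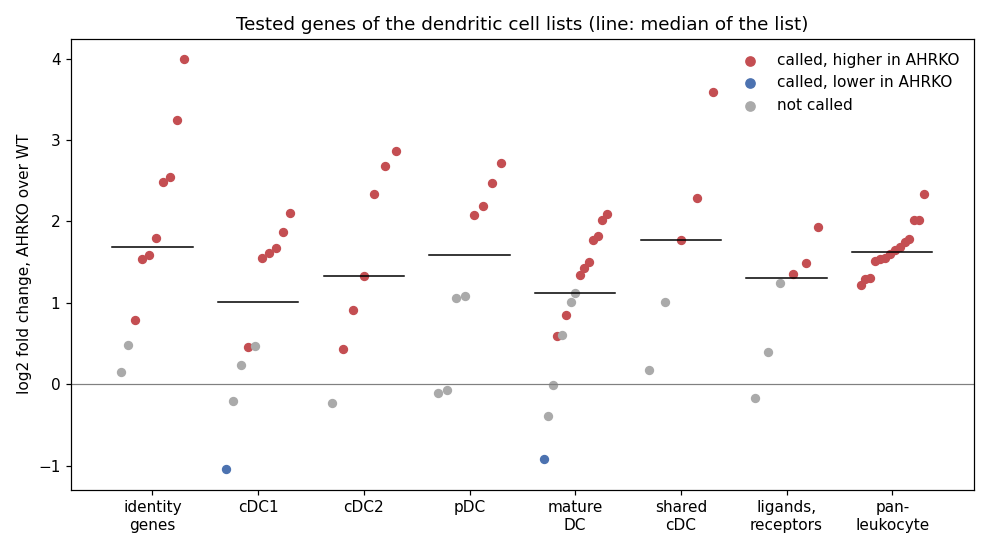
Log2 fold change (AHRKO over WT, vertical axis) of each tested gene in the dendritic cell identity genes, 6 further dendritic cell lists and the pan-leukocyte markers, coloured by whether the gene passed the test, with the median of each list as a line. The median was 1.69 for the identity genes and 1.63 for the pan-leukocyte markers.

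The genes whose profile over the 12 libraries lay nearest to each member were found among 13047 candidates, by the mean absolute difference of log2 CPM after each gene's own mean was subtracted. Flt3 lay nearest to Ccr7, the homing receptor of mature dendritic cells and naive T cells, at a mean difference of 0.19 per library. The measure includes AHRKO replicate 1, where Flt3 and Ccr7 were 6.36 and 5.79 times the mean of the other AHRKO libraries. It also includes the shift between the groups, so nearness does not show a shared cell type. Batf3 lay nearest to Arhgap15 (0.263) and Cd22 (0.279), and Siglech to Gimap3 (0.425) and the T cell receptor chain gene Cd3g (0.444). Cd209a lay nearest to Siglec1, a macrophage lectin, at 0.34, and to Cbr2 (0.352). Ccl17 had Tnfsf4 (0.455) and the cDC2 list gene Mgl2 (0.464) as its nearest, and Ccl22 had Rnase6 (0.318) and Clec2i (0.359). Fscn1 lay nearest to Tigd2 (0.094) and Cavin3 (0.095), Zbtb46 to Tmem104 (0.116) and Armc7 (0.124), and Cacnb3 to Zc3h10 (0.064) and Gtpbp2 (0.068). Flt3's second nearest gene was P2ry10 (0.279), and that of Xcr1 was Cd69 (0.402). A gene that varies little between libraries, such as Cacnb3, lies near any other such gene on this measure.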

How the data were processed

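The authors deposited raw read counts per gene for 12 libraries, 6 WT and 6 AHRKO. The submitters' processing notes name the build mm10 and, with no versions, the tools HISAT2, SAMtools, HTSeq and DESeq2. Which annotation was used and whether strand was read were not stated. Symbols, coordinates and union exon lengths came from GENCODE M21, which matched 42462 of 43432 identifiers, and promoter windows from RefSeq. Genes that filterByExpr kept (15449) were scaled by TMM and tested by edgeR 4.0.16 (quasi-likelihood, two-sided, R 4.3.3), and Benjamini-Hochberg adjustment ran across every one of them, with calls under 0.05. Each SE is the log2 fold change over the root of F. log2 CPM used a prior count of 2. limma 3.58.1 and DESeq2 1.42.0 served as alternatives. The covariate fit that also leaves out AHRKO replicate 1 was chosen after seeing the data. The fits were tested on simulated data. The closest pair of libraries within a group differed by a chi-squared of 13.7 per degree of freedom, so none was counted as a duplicate. Intervals cover counting error only, since the labels name no molecular identifiers. Beyond the 10 members, named genes were the 3 with the smallest p per dendritic cell list, the 2 most abundant per marker list and the 2 nearest profiles per member. A few genes that this rule names are not reported here. Members and lists were chosen with earlier results of these data known.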

Additional observations from a re-analysis of the deposited data

Results flagged for a closer look

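For each of the 10 genes, the highest and the lowest of the 6 libraries of a group were compared with the rest by the gap to the nearest library divided by the group's range on the log2 CPM scale against Dixon's 95% limit. Of 20 groups 2 passed it, and chance alone passes about 1 in 20. Both were AHRKO replicate 1. Zbtb46 had a gap of 0.79 of the range, with 34.1 CPM against 16.3 in the next library. Flt3 had a gap of 0.643 of the range, with 24.3 CPM against 5.36 in the next.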

How the results depend on the processing

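The direction of every member's fold change was kept in the 199 values from settings without a covariate, and 22 of these lost a call, all of Flt3, Cd209a, Siglech, Ccl17 or Ccl22. Leaving out single libraries gave 5 to 8 members that rose, 27 to 34 genes of the wider dendritic cell lists that rose and 1 to 3 that fell, and 1822 to 2980 of all genes that rose and 1632 to 2778 that fell. With the pan-leukocyte covariate 1 member rose, and 8 genes of the wider lists rose and 6 fell. Log2 fold changes then turned to -0.19 for Zbtb46, -0.44 for Flt3 and -0.11 for Cd209a, and to -1.13 for Cd209a with AHRKO replicate 1 left out as well. In that last fit 0 members rose and 3 genes of the wider lists did, with 519 of all genes higher and 937 lower. The cause was not tested. With the replicate number as a block, 4 members rose, 18 genes of the wider lists rose and 0 fell (edgeR, 3 lower at an unadjusted p under 0.05), and 1114 of all genes rose and 1240 fell. Same-numbered samples did not deviate together (correlations of -0.47 to 0.029, and no library correlated best with its own number). No pairing was thus seen. The labels name no batch, and this check cannot show whether the numbers stand for one. The stricter filter removed Xcr1, and the robust fit, upper-quartile scaling and no filter each ended the call of Cd209a (adjusted p of 0.0506, 0.0526 and 0.0657, edgeR). No member fell in any setting by edgeR, DESeq2 or limma-voom. Depth limits Xcr1 and Siglech most, with at most 6 and 15 reads in a WT library.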
